A study of Mus musculus with 8 samples.

Results

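The 33 genes described here encode the ion channels that set the electrical activity of the heart and the connexins that join its cells, and they were taken by name. They comprise 2 pacemaker channel genes, 1 sodium channel subunit gene, 8 genes for calcium channels or calcium exchange, 15 potassium channel genes, 3 genes of the transient receptor potential (TRP) family and 4 connexin genes. All 33 were found among the 27179 genes of the deposited table, and all 33 passed the filter on low counts, which left 15086 genes for testing. RNA was measured in whole mouse hearts of stage E10.5, in 3 Kat6a KO hearts (Kat6a-/-, both alleles lost) and 5 Kat6a WT hearts (Kat6a+/+), with 1 library per heart. The product of Kat6a (Moz) acetylates histones. The labels name no strain, litter or sex and do not say which part of the gene was removed, so a p-value here covers only the spread among these 8 hearts.

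Libraries held 19911803 to 34539787 counts each. Kat6a itself averaged 137 ± 3.81 counts per 1000000 counts (CPM) in Kat6a KO hearts (SD, n = 3) and 145 ± 6.92 CPM in Kat6a WT hearts (SD, n = 5), a difference that did not pass edgeR's quasi-likelihood test (log2 fold change -0.08 ± 0.05 SE, Benjamini-Hochberg adjusted p = 0.529). Counts summed over a whole gene do not check a genotype label when part of a gene may still be transcribed. Xist, which is transcribed from an inactive X chromosome, stood at no more than 0.372 CPM in all 3 Kat6a KO hearts and in Kat6a WT replicates 1 to 3, and at 307 and 301 CPM in Kat6a WT replicates 4 and 5. Without those Kat6a WT hearts the log2 fold changes of 14 of the 32 channel and connexin genes that still passed the count filter moved by over 1.5 times or changed sign. Of these, 9 stayed under 0.12 in size in both fits, and the other 5 (Hcn4, Kcna5, Kcnd2, Kcnj3 and Kcnj8) are given both ways beside their values. In whole hearts, fewer cells of a type and less RNA per cell cannot be told apart.

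The embryonic heart beats before it has finished forming. Its rhythm starts in pacemaker cells of the sinus venosus, where HCN channels and calcium channels depolarise the membrane. Calcium entry through L-type and T-type channels drives the early action potential, potassium channels end it and hold the resting potential, and connexins pass the current from cell to cell. TRP channels are cation channels outside this core set.

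Trpm3 and Kcnj5 were the only genes of the 33 to pass the test, so their promoters are shown, each from 250 bases before to 50 bases after a RefSeq start site in the GRCm38.p6 build. Trpm3 has 2 such promoters, on the plus strand at chr19:22138796-22139095 and chr19:22447958-22448257, and Kcnj5 has 1, on the minus strand at chr9:32344295-32344594. Capitals mark E-boxes (CANNTG), and in the second Trpm3 sequence also 1 match to the NKX2-5 motif TNAAGTG on the opposite strand, which overlaps an E-box.
Trpm3 upstream promoter: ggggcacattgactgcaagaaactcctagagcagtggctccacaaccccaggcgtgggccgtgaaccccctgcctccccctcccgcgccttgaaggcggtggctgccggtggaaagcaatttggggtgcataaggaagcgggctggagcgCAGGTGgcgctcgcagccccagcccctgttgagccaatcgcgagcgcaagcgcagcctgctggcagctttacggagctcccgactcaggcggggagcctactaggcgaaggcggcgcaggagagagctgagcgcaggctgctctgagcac
Trpm3 downstream promoter: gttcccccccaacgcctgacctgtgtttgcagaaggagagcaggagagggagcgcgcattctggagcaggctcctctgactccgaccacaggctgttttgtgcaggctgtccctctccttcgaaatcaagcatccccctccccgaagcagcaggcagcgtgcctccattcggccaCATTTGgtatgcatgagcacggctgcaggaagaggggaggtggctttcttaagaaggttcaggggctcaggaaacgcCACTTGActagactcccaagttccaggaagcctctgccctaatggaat
Kcnj5 promoter: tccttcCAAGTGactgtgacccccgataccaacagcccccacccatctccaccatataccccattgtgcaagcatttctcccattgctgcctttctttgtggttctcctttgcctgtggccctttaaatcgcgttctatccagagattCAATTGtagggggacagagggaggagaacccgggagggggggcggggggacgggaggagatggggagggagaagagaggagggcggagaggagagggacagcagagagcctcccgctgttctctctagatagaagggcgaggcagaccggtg
The Trpm3 promoters held 21 and 10 CpG dinucleotides and the Kcnj5 promoter held 10, beside a median of 20 over the 14562 promoters of tested genes. On either strand, E-boxes were found in 64.4% of those promoters and the NKX2-5 motif in 8.73%. The T-box motif AGGTGTGA, the GATA motif AGATAA, the hypoxia response motif ACGTG, the cyclic AMP response motif TGACGTCA and the letters TATAAA occurred in none of the 3 windows, and in 0.865%, 6.65%, 24.7%, 2.88% and 7.47% of all promoters. Promoters were found for 25 of the 33 genes. Among these, 19 genes held an E-box, 4 the NKX2-5 motif, 3 the hypoxia response motif, 2 the GATA motif, 1 TATAAA and 0 the T-box or cyclic AMP motif. These counts are per gene, with a match in any of its promoters (30 promoters in all). The percentages above are per promoter, so the 2 are not on the same scale.

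Of the 33 genes, 1 rose (Trpm3) and 1 fell (Kcnj5) in Kat6a KO hearts by edgeR's quasi-likelihood test at an adjusted p below 0.05, and 31 did not pass. That is 6.06% of the 33, beside 2.67% of all genes tested (1.44% rose and 1.23% fell). Without the 3 TRP genes it is 1 of 30, or 3.33%. DESeq2 called 5 of the 33 (15.2%), beside 3.39% of the 16477 genes to which it gave an adjusted p. An unadjusted p below 0.05 was reached by 10 of the 33 genes, beside 14.2% of all genes tested. Their median log2 fold change was 0.04, against -0.00015 over all genes tested, with 20 genes above 0 and 13 below. Of all genes tested 49.9% were above 0. The Kat6a KO and Kat6a WT values did not overlap for 7 genes (21.2%), beside 9.59% of all genes tested. Kat6a KO hearts were above all Kat6a WT hearts for Trpm3, Cacna2d2, Slc8a1 and Kcnj2, and below them for Cacna1d, Hcn4 and Kcnj5. Over all genes tested, 4.77% lay above in this way and 4.81% below. The 33 genes were chosen with earlier results of these data known. The shares in this paragraph therefore describe the list and do not measure an enrichment. Among the 31 genes that did not pass, 15 had a standard error under 0.1 on the log2 scale, and for all 15 of these the fitted log2 fold change was at most 0.29 in size. The standard errors of Hcn2, Kcnj8 and Kcnip2 were above 0.3.

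**Figure D1:**
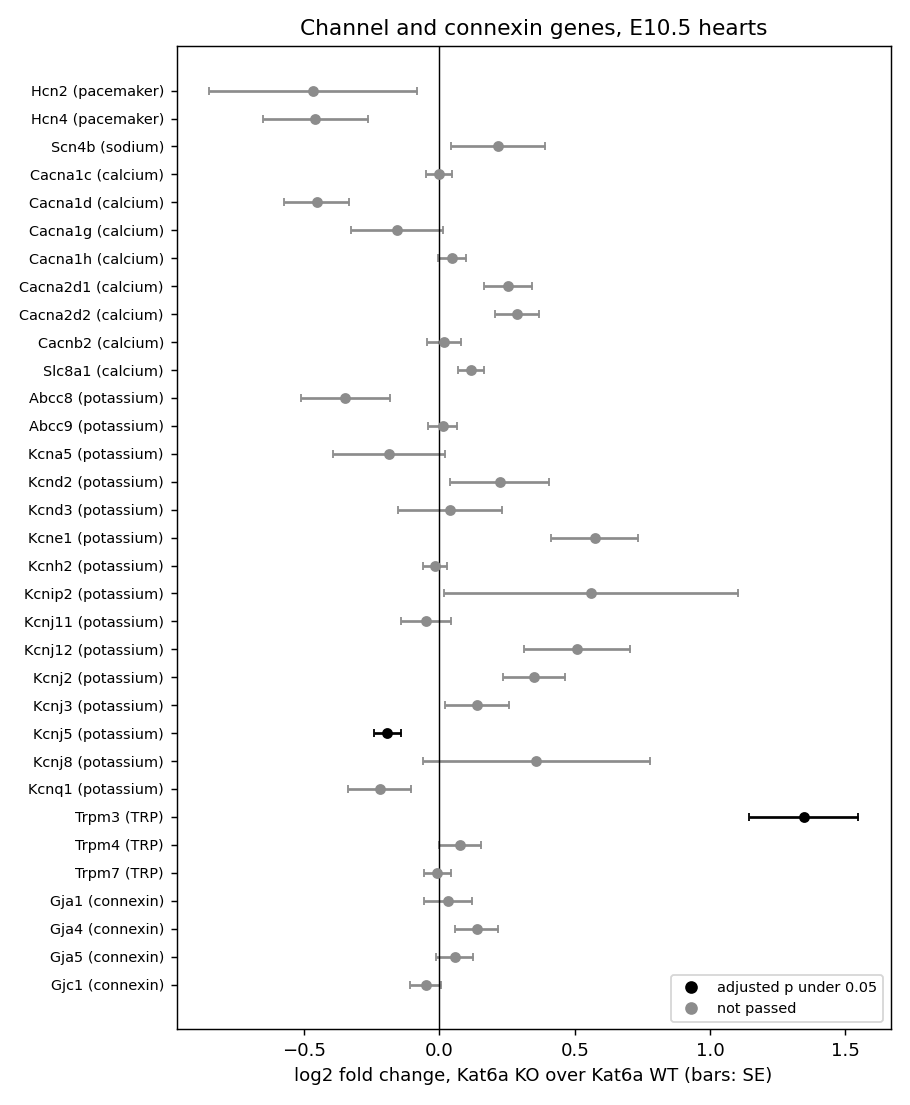
Log2 fold change, Kat6a KO over Kat6a WT, for the 33 channel and connexin genes grouped by role, with bars of 1 standard error from edgeR. Trpm3 stands at 1.35 and Kcnj5 at -0.19, and the 31 other genes did not pass the test.

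Hcn4, which encodes the main pacemaker channel of the sinus node, was lower in every Kat6a KO heart than in any Kat6a WT heart without passing the test. It had 67.8, 79.4 and 86.5 CPM in Kat6a KO hearts, against 88.3, 99.7, 88.2, 116 and 142 CPM in Kat6a WT hearts. The groups did not overlap, but the lowest Kat6a WT value was only slightly above the highest Kat6a KO value, and the Kat6a WT hearts spread widely. The log2 fold change was -0.46 ± 0.19 (SE), with an adjusted p of 0.364 in edgeR's quasi-likelihood test. The highest Hcn4 levels were those of Kat6a WT replicates 4 and 5, the hearts with Xist RNA. Without them the log2 fold change was -0.24 (edgeR adjusted p = 0.189).

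Markers of the sinus node and pacemaker myocardium also varied from heart to heart. Shox2, a transcription factor of the sinus venosus, had 9.24, 8.39 and 21.1 CPM in Kat6a KO hearts, against 0.85, 5.94, 5.74, 19.4 and 26.8 CPM in Kat6a WT hearts. Kat6a WT replicates 4 and 5 were the highest Kat6a WT hearts for both Shox2 and Hcn4, while the Shox2 groups overlapped. The same hearts were highest among Kat6a WT for Vsnl1, but not for Isl1, Tbx3, Tbx18, Smoc2 or Bmp4. Tbx18, also on the epicardial list, was lower in every Kat6a KO heart than in any Kat6a WT heart. Its log2 fold change was -0.25 ± 0.08 (SE, edgeR adjusted p = 0.127). None of the 7 sinus node markers passed the test, none was at 0 in all hearts, and their summed level was 185 to 249 CPM in Kat6a KO hearts and 180 to 292 CPM in Kat6a WT hearts. Their part in the Hcn4 values was not tested. Hcn2, the paralog found in working myocardium of adult mice, was near the limit of detection at 0.80 ± 0.42 CPM in Kat6a KO hearts (SD, n = 3) and 1.14 ± 0.30 CPM in Kat6a WT hearts (SD, n = 5). Its groups overlapped (log2 fold change -0.47 ± 0.39 SE, edgeR adjusted p = 0.649). Hcn4 made up 98.7% of the summed CPM per kilobase of Hcn4 and Hcn2 in both groups.

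Scn4b, an auxiliary subunit of voltage-gated sodium channels, averaged 13.2 ± 3.63 CPM in Kat6a KO hearts (SD, n = 3) and 11.3 ± 2.02 CPM in Kat6a WT hearts (SD, n = 5). The groups overlapped, and the gene did not pass (log2 fold change 0.22 ± 0.17 SE, edgeR adjusted p = 0.645). Its sign rested on Kat6a KO replicate 2, without which the log2 fold change was -0.03.

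None of the 8 genes for calcium channels and exchange passed the test, although the groups did not overlap for 3 of them. Cacna2d2 encodes an auxiliary subunit that carries calcium channels to the membrane. It had 524, 539 and 533 CPM in Kat6a KO hearts, against 423, 361, 445, 454 and 499 CPM in Kat6a WT hearts. All Kat6a KO hearts were above all Kat6a WT hearts, and they lay close together. Its log2 fold change was 0.29 ± 0.08 (SE), with an edgeR adjusted p of 0.109. Without the hearts with Xist RNA it was 0.38 (edgeR adjusted p = 0.00582), and with Xist RNA as a covariate the adjusted p was 0.00479. It also passed without Kat6a WT replicate 2 or 5, at edgeR adjusted p-values of 0.0168 and 0.00910, and by DESeq2 on all hearts, at 0.00650. It passed in 6 of 18 alternatives (other tools, scalings, filters and sets of hearts), over which the adjusted p reached 0.330. Its paralog Cacna2d1 averaged 64.6 ± 7.995 CPM in Kat6a KO hearts (SD, n = 3) and 54.3 ± 5.79 CPM in Kat6a WT hearts (SD, n = 5), with overlapping groups (log2 fold change 0.25 ± 0.09 SE, edgeR adjusted p = 0.183, and 0.0169 without Kat6a WT replicate 2).

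Cacna1d encodes an L-type pore subunit that opens at low voltage and works in pacemaker cells. Cacna1d had 26.5, 35.8 and 32.7 CPM in Kat6a KO hearts, against 39.0, 38.4, 41.0, 44.8 and 52.9 CPM in Kat6a WT hearts. Every Kat6a KO heart was below every Kat6a WT heart. Its log2 fold change was -0.45 ± 0.12 (SE), with an edgeR adjusted p of 0.0859, and DESeq2 gave an adjusted p of 0.00284. The 2 highest hearts were again Kat6a WT replicates 4 and 5, and without both the log2 fold change was -0.32 (edgeR adjusted p = 0.0934). Cacna1d passed in 3 of 18 alternatives, which were DESeq2, limma voom and leaving out Kat6a WT replicate 5, and the adjusted p reached 0.242. Cacna1c, the main L-type pore subunit of the ventricle, had nearly equal levels in the 2 groups. It stood at 149 ± 3.82 CPM in Kat6a KO hearts (SD, n = 3) and 150 ± 6.11 CPM in Kat6a WT hearts (SD, n = 5), with a log2 fold change of -0.0017 ± 0.05 (SE).

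Cacna1h, the dominant T-type pore subunit here, averaged 273 ± 13.7 CPM in Kat6a KO hearts (SD, n = 3) and 265 ± 16.3 CPM in Kat6a WT hearts (SD, n = 5). It accounted for 98.4% of the summed T-type CPM per kilobase in Kat6a KO hearts and 98.1% in Kat6a WT hearts, with Cacna1g making up the rest. Cacna1g had a log2 fold change of -0.16 ± 0.17 (SE), and Cacnb2, the intracellular subunit of L-type channels, one of 0.02 ± 0.06 (SE); neither passed. Slc8a1, the sodium-calcium exchanger of the cell membrane, had the highest CPM of the 33 genes and the highest CPM per kilobase. It had 2490, 2446 and 2341 CPM in Kat6a KO hearts, against 2248, 2216, 2325, 2100 and 2304 CPM in Kat6a WT hearts. The Kat6a KO hearts were all higher by a narrow margin (log2 fold change 0.12 ± 0.05 SE, edgeR adjusted p = 0.256).

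**Figure D2:**
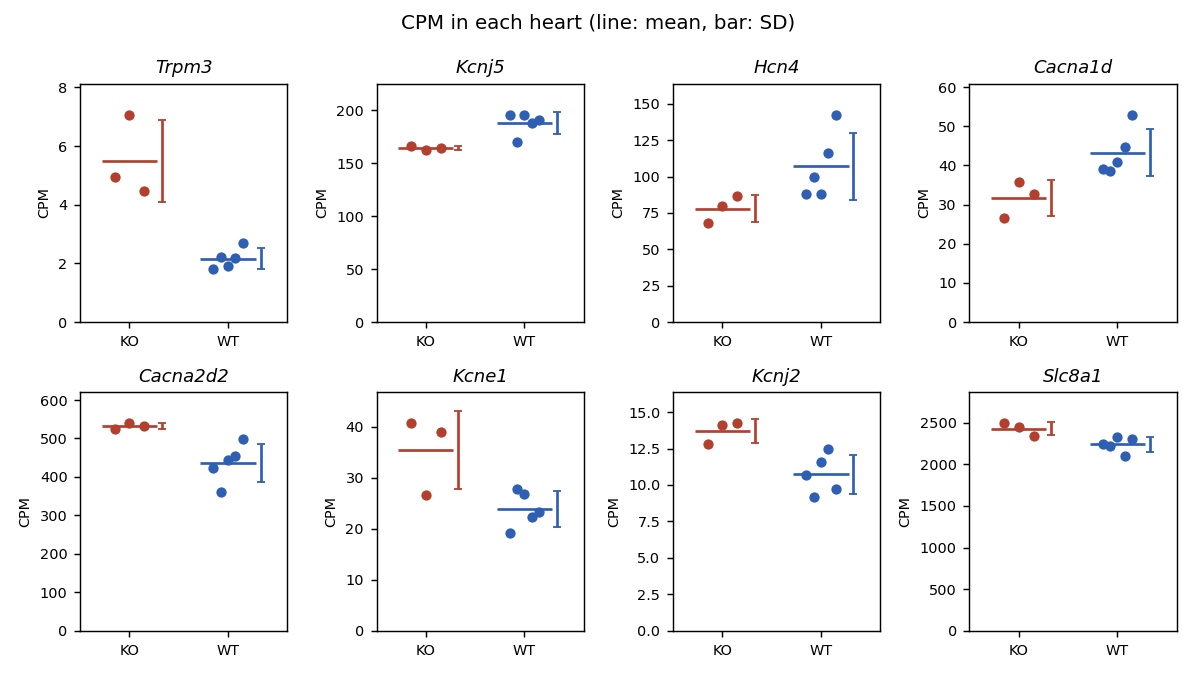
CPM in each heart, Kat6a KO left of Kat6a WT, for 8 of the channel genes, with each group's mean and SD. Trpm3 lay between 4.45 and 7.07 CPM in Kat6a KO hearts and between 1.79 and 2.71 CPM in Kat6a WT hearts, whereas the Kcne1 values overlapped.

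Among the 15 potassium channel genes 1 fell and 14 did not pass. Kcnj5 lies at chr9:32314706-32344380 and encodes a subunit of the channel that acetylcholine opens in atrial and nodal cells. It had 167, 163 and 164 CPM in Kat6a KO hearts, against 195, 170, 196, 188 and 190 CPM in Kat6a WT hearts. The Kat6a KO hearts were tightly grouped below all Kat6a WT hearts, and Kat6a WT replicate 2 came nearest to them. The log2 fold change was -0.19 ± 0.05 (SE), with an edgeR adjusted p of 0.0383. The call was lost in 12 of 18 alternatives, over which the adjusted p ranged from 0.00516 to 0.188. Without the hearts with Xist RNA the adjusted p of edgeR was 0.119. Leaving out any single heart other than Kat6a WT replicate 2 ended the call, with edgeR adjusted p-values of 0.0620 to 0.126.

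Kcnj3, which forms that channel together with Kcnj5, averaged 13.7 ± 1.10 CPM in Kat6a KO hearts (SD, n = 3) and 12.5 ± 1.76 CPM in Kat6a WT hearts (SD, n = 5), with overlapping groups (log2 fold change 0.14 ± 0.12 SE, edgeR adjusted p = 0.662). Without the hearts with Xist RNA the log2 fold change of Kcnj3 was 0.28 ± 0.12 (SE, edgeR adjusted p = 0.330). Kcnj3 shares 31.1% of its 5215 exon bases in GENCODE M21 with the antisense gene Gm26794, and the labels do not state the strand setting of the counting. Its length in the deposited table is 1679 bases, so the share of the counted bases is not known. The 7 markers of atrial myocardium, where this channel is most abundant, all failed the test. Their summed level was 5402 to 6137 CPM in Kat6a KO hearts and 5233 to 5859 CPM in Kat6a WT hearts. Nearly all of that sum was Myl4, Myl7 and Nppa. Of the rest, Stard10 was highest, with a mean of 82.1 CPM in Kat6a KO hearts and 68.2 CPM in Kat6a WT hearts. The part of this list in the Kcnj5 and Kcnj3 values was not tested.

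Kcnj2 and Kcnj12 encode inward rectifier channels that hold the resting potential. Kcnj2 had 12.8, 14.1 and 14.2 CPM in Kat6a KO hearts, against 10.7, 9.19, 11.6, 12.4 and 9.7 CPM in Kat6a WT hearts. All Kat6a KO values were above all Kat6a WT values (log2 fold change 0.35 ± 0.11 SE, edgeR adjusted p = 0.124). Kcnj12 averaged 6.71 ± 1.10 CPM in Kat6a KO hearts (SD, n = 3) and 4.70 ± 1.26 CPM in Kat6a WT hearts (SD, n = 5), with a log2 fold change of 0.51 ± 0.19 (SE) that did not pass (edgeR adjusted p = 0.217). The share of Kcnj2 in the summed CPM per kilobase of both genes was 48.2% in Kat6a KO hearts and 51.4% in Kat6a WT hearts.

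Kcne1, Kcnq1 and Kcnh2 belong to the delayed rectifiers that end the action potential. Kcne1, the auxiliary subunit of the slow current, had 40.7, 26.6 and 39.0 CPM in Kat6a KO hearts, against 19.1, 27.8, 26.8, 22.4 and 23.3 CPM in Kat6a WT hearts. Kat6a KO replicate 2 lay inside the Kat6a WT range and the other Kat6a KO hearts above it. Its log2 fold change was 0.57 ± 0.16 (SE), with an edgeR adjusted p of 0.129. Leaving out Kat6a KO replicate 2 gave an edgeR adjusted p of 0.00245, and DESeq2 on all hearts gave 0.00162. Kcne1 passed in 4 of 18 alternatives, over which the log2 fold change was 0.46 to 0.74 and the adjusted p reached 0.533. Kcnq1, the pore subunit that pairs with Kcne1, averaged 11.2 ± 1.599 CPM in Kat6a KO hearts (SD, n = 3) and 13.1 ± 1.34 CPM in Kat6a WT hearts (SD, n = 5). The Kcnq1 groups overlapped (log2 fold change -0.22 ± 0.12 SE, edgeR adjusted p = 0.411), and 121 exon bases, or 2.96%, are shared with the antisense RNA Kcnq1ot1. Kcnh2, the pore subunit of the rapid current, had the smallest standard error of the 33 genes, with 220 ± 3.66 CPM in Kat6a KO hearts (SD, n = 3), 222 ± 8.57 CPM in Kat6a WT hearts (SD, n = 5) and a log2 fold change of -0.02 ± 0.04 (SE).

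The ATP-sensitive channels, which link potassium current to metabolism, join a pore (Kcnj8 or Kcnj11) to a sulfonylurea receptor (Abcc8 or Abcc9). Kcnj11 averaged 40.4 ± 6.90 CPM in Kat6a KO hearts (SD, n = 3) and 42.0 ± 2.73 CPM in Kat6a WT hearts (SD, n = 5). Abcc9 averaged 219 ± 20.05 CPM in Kat6a KO hearts and 217 ± 9.30 CPM in Kat6a WT hearts, with the same numbers of hearts. Neither differed by more than its standard error (log2 fold changes -0.05 ± 0.09 and 0.01 ± 0.05 SE). Kcnj11 gave 95.5% of the summed pore CPM per kilobase in Kat6a KO hearts and 96.6% in Kat6a WT hearts, and Abcc9 97.3% of the receptor CPM per kilobase in Kat6a KO hearts and 96.5% in Kat6a WT hearts. The minor partners had log2 fold changes of 0.36 ± 0.42 (SE) for Kcnj8 and -0.35 ± 0.16 (SE) for Abcc8, with edgeR adjusted p-values of 0.779 and 0.342. Kcnj8 had a log2 fold change of 0.70 ± 0.47 (SE) without the hearts with Xist RNA.

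The channels of the transient outward and ultrarapid currents, which shape early repolarisation, were low or variable. Kcna5 averaged 29.1 ± 5.81 CPM in Kat6a KO hearts (SD, n = 3) and 33.2 ± 7.18 CPM in Kat6a WT hearts (SD, n = 5). Kcnd2 and Kcnd3 stood at 5.68 ± 0.51 and 3.63 ± 0.76 CPM in Kat6a KO hearts, against 4.88 ± 1.13 and 3.58 ± 0.51 CPM in Kat6a WT hearts. Kcnip2, the auxiliary subunit of the Kcnd channels, was at 0.49 ± 0.31 CPM in Kat6a KO hearts and 0.31 ± 0.11 CPM in Kat6a WT hearts. All 4 had overlapping groups, and their edgeR adjusted p-values were 0.776, 0.648, 0.958 and 0.713. Kcna5 had a log2 fold change of -0.19 ± 0.21 (SE) over all hearts and -0.01 ± 0.15 (SE) without the hearts with Xist RNA. For Kcnd2 the log2 fold change was 0.22 ± 0.18 (SE) over all hearts and 0.37 ± 0.20 (SE) without those hearts.

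Trpm3 showed the largest log2 fold change of the 33 genes. It spans chr19:22137797-22995410 and encodes a calcium-permeable channel of the melastatin group that opens with heat and pregnenolone sulfate. It had 4.95, 7.07 and 4.45 CPM in Kat6a KO hearts, against 1.79, 2.20, 1.91, 2.18 and 2.71 CPM in Kat6a WT hearts. The groups were well apart, and Kat6a KO replicate 2 was the highest heart. The log2 fold change was 1.35 ± 0.20 (SE), with an edgeR adjusted p of 0.000547. It passed in all 18 alternatives, with log2 fold changes of 1.13 to 1.48 and adjusted p-values of at most 0.00937. The level was nevertheless low: Trpm3 had the lowest CPM per kilobase of the 33 genes in Kat6a WT hearts, at 0.20, with 0.51 in Kat6a KO hearts. Its exons share 277 and 351 bases with the antisense genes Gm27151 and C330002G04Rik, at most 1.44% of its 24437 exon bases in GENCODE M21. Its length in the deposited table is 10717 bases.

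Trpm3 is also expressed in neural and pigmented tissue of mice, so markers of such cells are given beside it. None of the 7 tested markers of neurons and neural crest passed, and the 9 of that list summed to 25.4 to 29.6 CPM in Kat6a KO hearts and 28.9 to 40.3 CPM in Kat6a WT hearts. Of 6 melanocyte and pigment epithelium markers Tyrp1 was at 0 in all hearts, 2 were tested and 0 passed, and the sum was 53.0 to 61.3 CPM in Kat6a KO hearts and 54.6 to 57.6 CPM in Kat6a WT hearts. Nearly all of that sum was Mitf, with a mean of 55.4 CPM in Kat6a KO hearts and 54.7 CPM in Kat6a WT hearts, while the means of Dct, Tyr and Mlana were at most 0.12 CPM in Kat6a KO hearts and 0.25 CPM in Kat6a WT hearts. The epicardial list did differ: 1 of 9 markers rose (Krt19) and 6 fell (Wt1, Tcf21, Upk3b, Upk1b, Lrrn4 and Bnc1), with a summed level of 361 to 413 CPM in Kat6a KO hearts and 478 to 546 CPM in Kat6a WT hearts. Liver and endoderm markers summed to 1.83 to 15.3 CPM in Kat6a KO hearts and 0.862 to 1.94 CPM in Kat6a WT hearts, the highest value being that of Kat6a KO replicate 3. That heart had the lowest Trpm3 level among Kat6a KO hearts. Afp, of the liver and endoderm list, had 1.04, 0.66 and 12.1 CPM in Kat6a KO hearts and at most 0.57 CPM in Kat6a WT hearts. Its groups did not overlap, and it did not pass the test (edgeR adjusted p = 0.176). The parts of the epicardial list and of the liver and endoderm list in the Trpm3 result were not tested. Trpm4, a calcium-activated cation channel, and Trpm7, a channel with a kinase domain that passes magnesium, had log2 fold changes of 0.08 ± 0.08 (SE) and -0.01 ± 0.05 (SE), and neither passed.

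None of the 4 connexin genes passed, and all 4 had overlapping groups. Gja1, the principal connexin of working myocardium, averaged 205 ± 18.8 CPM in Kat6a KO hearts (SD, n = 3) and 201 ± 21.8 CPM in Kat6a WT hearts (SD, n = 5), with a log2 fold change of 0.03 ± 0.09 (SE). Gja5, the connexin of the atria and the conduction system, averaged 173 ± 18.7 CPM in Kat6a KO hearts and 166 ± 11.9 CPM in Kat6a WT hearts, with a log2 fold change of 0.06 ± 0.07 (SE). Gjc1, the first connexin of the embryonic heart, averaged 77.7 ± 3.14 CPM in Kat6a KO hearts and 80.5 ± 4.71 CPM in Kat6a WT hearts, with a log2 fold change of -0.05 ± 0.06 (SE). Gja4, a connexin of endothelium, averaged 37.4 ± 1.56 CPM in Kat6a KO hearts and 34.1 ± 3.57 CPM in Kat6a WT hearts, with a log2 fold change of 0.14 ± 0.08 (SE). Their adjusted p-values in edgeR's test were 0.924, 0.787, 0.761 and 0.465. Of their summed CPM per kilobase, Gja1 made up 38.5% in Kat6a KO hearts and 38.7% in Kat6a WT hearts, and Gja5 32.4% in Kat6a KO hearts and 32.1% in Kat6a WT hearts. Gjc1 made up 15.6% in Kat6a KO hearts and 16.7% in Kat6a WT hearts, and Gja4 13.5% in Kat6a KO hearts and 12.6% in Kat6a WT hearts.

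**Figure D3:**
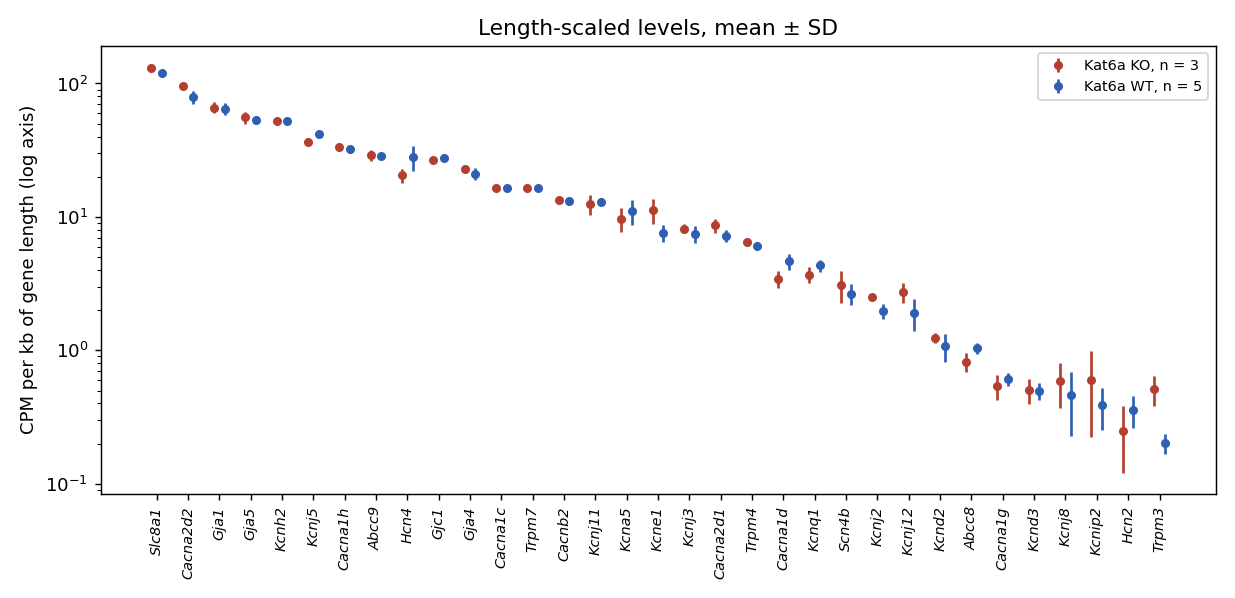
Mean CPM per kilobase of gene length for the 33 genes on a log axis, Kat6a KO and Kat6a WT side by side, with SD over 3 and 5 hearts. Slc8a1 is highest at 130 in Kat6a KO hearts and 120 in Kat6a WT hearts, and Trpm3 is lowest in Kat6a WT hearts at 0.20.

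Scaled by gene length, 16 of the 33 genes were above 10 CPM per kilobase in Kat6a WT hearts, 11 were between 1 and 10, and 6 were under 1. After Slc8a1 came Cacna2d2, with 96.0 CPM per kilobase in Kat6a KO hearts and 78.7 in Kat6a WT hearts, and Gja1, with 66.0 in Kat6a KO hearts and 64.6 in Kat6a WT hearts. The median coefficient of variation of the 33 genes was 10.8% in Kat6a KO hearts and 10.7% in Kat6a WT hearts. Over all genes tested it was 7.62% in Kat6a KO hearts and 8.16% in Kat6a WT hearts.

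Ratios of CPM per kilobase were taken within each heart for 11 pairs of genes that form one channel or can replace each other, as descriptions with no test. The groups overlapped for 8 pairs and not for the other 3. No share was taken over pairs of other genes, so this count has no background beside it. The log2 ratio of Kcnq1 to Kcne1 was -1.58 ± 0.25 in Kat6a KO hearts (SD, n = 3) and -0.80 ± 0.09 in Kat6a WT hearts (SD, n = 5). That ratio separated the groups although neither gene did so alone. The log2 ratio of Cacna1d to Cacna1c was -2.28 ± 0.25 in Kat6a KO hearts and -1.83 ± 0.16 in Kat6a WT hearts. The log2 ratio of Kcnj3 to Kcnj5 was -2.17 ± 0.11 in Kat6a KO hearts and -2.50 ± 0.24 in Kat6a WT hearts. Cacna1d and Kcnj5 each separated the groups alone as well. The ratios within the ATP-sensitive, T-type, Kcnd, HCN, Cacna2d and connexin families all overlapped.

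**Figure D4:**
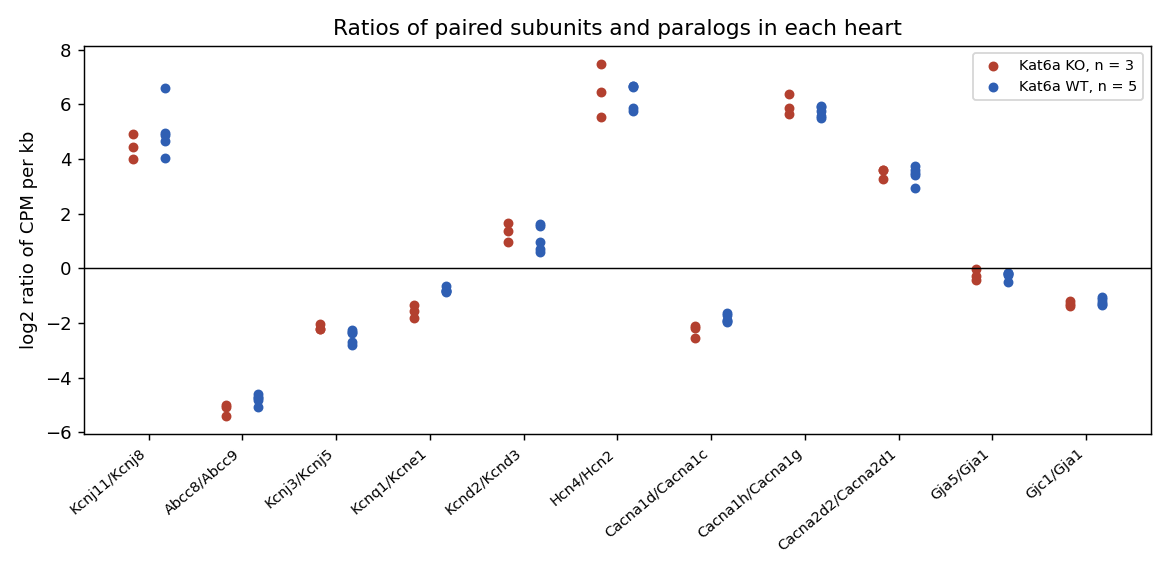
Log2 ratio of CPM per kilobase in each heart for 11 pairs of channel or connexin genes, Kat6a KO beside Kat6a WT. The groups are apart for Kcnq1 to Kcne1, with means of -1.58 in Kat6a KO hearts and -0.80 in Kat6a WT hearts, for Cacna1d to Cacna1c and for Kcnj3 to Kcnj5.

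A wider list of 148 other genes for channels, pumps, connexins and their partners was read from the same fit. Of these, 114 were tested, and 5 rose, 1 fell and 108 did not pass, with a median log2 fold change of 0.02. The share called was 5.26%, beside 2.67% of all genes tested. This list too was chosen with earlier results of these data known, so its share does not measure an enrichment. Genes of the sodium pump, which keeps the gradients that channels use, were among those that rose. Atp1b1 averaged 851 ± 42.0 CPM in Kat6a KO hearts (SD, n = 3) and 702 ± 24.6 CPM in Kat6a WT hearts (SD, n = 5), and Atp1b2 82.3 ± 2.15 CPM in Kat6a KO hearts and 69.3 ± 5.96 CPM in Kat6a WT hearts. These beta subunits, which carry the pump to the membrane, had log2 fold changes of 0.28 ± 0.05 and 0.25 ± 0.06 (SE), with edgeR adjusted p-values of 0.00173 and 0.0346. Atp1b2 lost its call in 7 of 18 alternatives, among them each that left out 1 Kat6a KO heart or Kat6a WT replicate 1, 2 or 3, with edgeR adjusted p-values of 0.0547 to 0.185. Atp1b1 kept its call in 17 of 18 alternatives. Atp1b1 shares 18.7% of its exon bases with Nme7 on the opposite strand.

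Scn10a, a voltage-gated sodium channel, averaged 7.37 ± 1.57 CPM in Kat6a KO hearts (SD, n = 3) and 4.14 ± 0.55 CPM in Kat6a WT hearts (SD, n = 5), and it rose with a log2 fold change of 0.83 ± 0.17 (SE, edgeR adjusted p = 0.00639). Dpp6, a partner of the Kcnd channels, averaged 5.67 ± 1.26 CPM in Kat6a KO hearts and 3.11 ± 0.505 CPM in Kat6a WT hearts and rose with a log2 fold change of 0.87 ± 0.19 (SE, edgeR adjusted p = 0.0107). Both lost their calls without Kat6a KO replicate 1, at edgeR adjusted p-values of 0.105 and 0.157. Kcne1l, a potassium channel subunit gene on the X chromosome that is also called Kcne5, averaged 14.0 ± 1.57 CPM in Kat6a KO hearts and 21.02 ± 3.90 CPM in Kat6a WT hearts. It fell with a log2 fold change of -0.58 ± 0.14 (SE, edgeR adjusted p = 0.0413) although its groups overlapped, and without the hearts with Xist RNA the adjusted p was 0.119. The Kcne1l call was lost in 10 of 18 alternatives, among them each that left out 1 Kat6a KO heart or Kat6a WT replicate 3, 4 or 5.

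**Figure D5:**
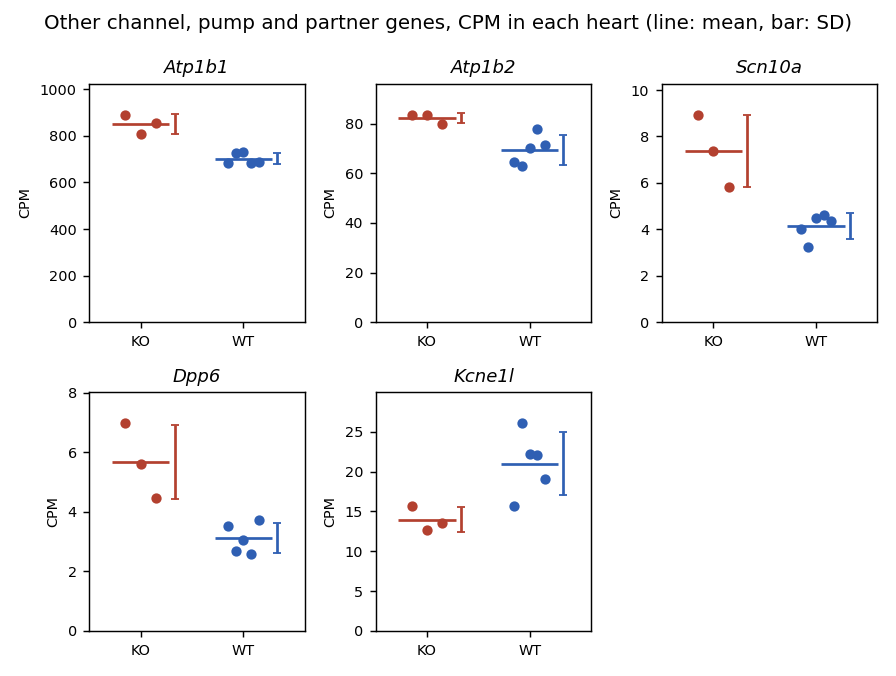
CPM in each heart, Kat6a KO left of Kat6a WT, for 5 genes of the wider list that passed the test, with each group's mean and SD. Atp1b1 averaged 851 CPM in Kat6a KO hearts and 702 CPM in Kat6a WT hearts, and the Kcne1l values overlapped.

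Markers of the chamber muscle that carries most of these channels differed between the groups. Of 8 ventricular and trabecular markers 1 rose (Myl3) and 3 fell (Irx4, Hand1 and Irx3), and none was at 0. Their summed level was 4780 to 5374 CPM in Kat6a KO hearts and 3789 to 4708 CPM in Kat6a WT hearts, lowest in Kat6a WT replicates 4 and 5. Most of that sum was Myl2 and Myl3, while 5 of the 8 markers had log2 fold changes below 0 and the median of the list was -0.17. Of 8 smooth muscle and pericyte markers Tagln and Cnn1 rose, and of 10 endothelial and endocardial markers Pecam1 and Tie1 rose and Npr3 fell, with sums of 3566 to 3633 and 1408 to 1497 CPM in Kat6a KO hearts, against 2916 to 3559 and 1372 to 1561 CPM in Kat6a WT hearts. The 7 erythroid markers summed to 5095 to 8705 CPM in Kat6a KO hearts and 3647 to 15112 CPM in Kat6a WT hearts, and none passed. The part of these lists in the values of Cacna2d2, Cacna1d, Kcnj5 and the sodium pump genes was not tested.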

How the data were processed

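Total RNA of each heart was extracted with a Qiagen RNeasy Micro kit and made into libraries with an Illumina TruSeq stranded kit, per the labels' protocols. Reads were processed with bcl2fastq and featureCounts on mm10, per the submitters' processing notes. Nothing in the labels names the aligner, the versions, the annotation or the strand setting. The authors deposited unnormalized counts for each Entrez ID, with gene lengths per the file headers. The 8 deposited single-heart tables equal the series table, and no library pair agreed within sampling noise (chi-square per degree of freedom 8.25 to 30.5).

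Counts were tested with edgeR 4.0.16 in R 4.3.3 (TMM scaling, filterByExpr, robust quasi-likelihood fit, Benjamini-Hochberg adjustment over 15086 genes, threshold 0.05). The method was tested on simulated data. The 18 alternatives included DESeq2 1.42.0, limma 3.58.1 voom with quality weights, other scalings and filters, a fit without robust moderation, the replicate number as a block, the hearts with Xist RNA left out or as a covariate (over 10 CPM), and leaving out each heart. CPM use TMM-scaled library sizes, except Xist, which uses total counts. Symbols were matched by Entrez ID to RefSeq (25275 of 27179), and exon overlaps came from GENCODE M21 on GRCm38. Shares of exon bases use GENCODE exons, which differ in length from the deposited gene lengths. The 33 genes, the wider list and the marker lists were chosen with earlier results of these data known. The text names all 33 genes, 5 of the 6 genes of the wider list that passed (1 is not reported here), and Kat6a, Xist and markers beside results; Shox2 was named after its values were seen. Reads carry no molecular identifiers.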

Additional observations from a re-analysis of the deposited data

How the results depend on the processing

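Trpm3 passed in all 18 alternatives, 4 other genes of the 33 besides Kcnj5 passed in at least 1, and 27 in none of those that gave a value. Kcnip2 had a value in 15 of the 18, being under the count filter in the other 3. The 33 genes held 2 calls, against 5 with DESeq2 (Trpm3, Kcnj5, Cacna1d, Cacna2d2 and Kcne1), which called 558 genes (3.39%), and 1 to 4 when 1 heart was left out. The replicate numbers did not pair the hearts (correlations of same-numbered hearts 0.066, -0.119 and -0.054). With the replicate block, on 6 hearts, 181 genes in place of 403, 2 of the 33 and 3 in place of 6 of the wider list passed; Atp1b1 lost its call (adjusted p = 0.0679). Leaving out 1 heart gave 194 (without Kat6a KO replicate 1) to 496 genes (without Kat6a WT replicate 2), 263 without Kat6a KO replicate 3, and 4 to 7 of the wider list. Fewer hearts were then tested. The sign held in every alternative that gave a value for 23 of the 33 genes and changed in some for 10, none of which was called with either sign. The log2 fold change of Cacna1c was 0.0026 with upper quartile scaling. With the block, with the Xist hearts left out and with Xist as a covariate it was 0.010, 0.011 and 0.011 for Cacna1c, -0.0057, -0.0054 and -0.0055 for Cacnb2, -0.028, -0.024 and -0.024 for Abcc9, and -0.0043, -0.0084 and -0.0085 for Gja1. Leaving out 1 heart, it ranged from -0.031 to 0.081 for Abcc9, -0.020 to 0.022 for Cacna1c, -0.0012 to 0.081 for Cacna1h, -0.024 to 0.055 for Cacnb2, -0.048 to 0.095 for Gja1, -0.038 to 0.11 for Gja5, -0.10 to 0.19 for Kcnd3, -0.14 to 0.077 for Kcnj11, -0.028 to 0.36 for Scn4b and -0.036 to 0.030 for Trpm7. The cause of these shifts was not tested.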

Other observations

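Several channel genes lie next to each other in the genome. Scn2b and Scn4b, both sodium channel auxiliary subunits, are 8554 bases apart and had log2 fold changes of 0.43 ± 0.14 and 0.22 ± 0.17 (SE), with neither passing. The ATP-sensitive channel genes stand as the pairs Kcnj11 and Abcc8, 3571 bases apart, and Kcnj8 and Abcc9, 16248 bases apart, and none of the 4 passed. Exons of 11 of the 33 channel and connexin genes overlap a gene on the opposite strand, 2 of them a gene that was tested: Kcnq1, and Gja5, which shares 165 bases (2.87%) with Gpr89. The strand setting of the counting is unknown, so reads of such partners cannot be told apart there.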
